A study of Mus musculus with 8 samples.

Results

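The 10 genes described here encode cyclins, cyclin-dependent kinases (CDKs) and CDK inhibitors that act in G1, the phase in which a cell decides whether to copy its DNA. They are the D-type cyclins Ccnd2 and Ccnd3, the E-type cyclins Ccne1 and Ccne2, the kinases Cdk2, Cdk4 and Cdk6, and the inhibitors Cdkn1b, Cdkn2c and Cdkn2d, and they were chosen by name from the 53242 genes of the count and TPM (transcript level per length and per sequenced total) tables. All 10 had a row in both tables. RNA was sequenced from B cells of the spleen of 8 C57BL/6 mice aged 8 to 12 weeks, 4 with the genotype Eif4a1+/+ CD23-cre (control) and 4 with Eif4a1fl/fl CD23-cre (called 4A1 KO), with a separate mouse for each library. Both genotypes carried the CD23-cre transgene, which is active from the immature stage of splenic B cells, and the 4A1 KO mice also carried loxP-flanked Eif4a1, the gene of an RNA helicase used in starting translation. All B cells were cultured for 24 h with 40 ng/ml IL4 on irradiated CD40LB cells, fibroblast feeders that express CD40 ligand and BAFF, and the feeders were then removed with antibody-coated beads. In each genotype the labels give a male (replicate 1) and a female (replicate 2) in batch A, and a male (replicate 3) and a female (replicate 4) in batch B. The labels do not say what a batch stands for.

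A resting B cell that receives CD40 and cytokine signals leaves quiescence, accumulates D-type cyclins and grows through G1 before its first division. D-type cyclins pair with CDK4 and CDK6, and E-type cyclins pair with CDK2. Both complexes phosphorylate the retinoblastoma protein, which releases E2F transcription factors that switch on genes of DNA replication. INK4 inhibitors, such as the products of Cdkn2c (p18) and Cdkn2d (p19), bind CDK4 and CDK6, whereas p27, the product of Cdkn1b, binds cyclin-CDK complexes and mainly inhibits CDK2.

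The 6 libraries of replicates 2 to 4 held 38488341 to 43210858 counted reads each. The libraries of replicate 1, which the study left out of its differential expression because of reduced viability, held 39890141 reads in control and 31727557 in 4A1 KO, and they are shown here but enter tests only where all 8 libraries are named. Eif4a1 itself, in CPM (counts scaled to library size), was at 825, 748, 939.6 and 881 in control libraries 1 to 4 and at 596, 556, 641 and 689 in the 4A1 KO libraries. The genotypes did not overlap, and the log2 fold change was -0.44 ± 0.05 (SE; edgeR, Benjamini-Hochberg adjusted p = 1.15e-04). These counts cover the whole gene, including exons outside the floxed part. Among B cell markers, Ms4a1 was at 328 to 394 TPM and Pax5 at 226 to 394 TPM over the 8 libraries, and neither was called. Cd79a (172 to 484 TPM), Cd79b (361 to 842 TPM) and Cd22 (73.9 to 180.01 TPM) were present in all libraries and decreased in 4A1 KO B cells, with log2 fold changes of counts of -0.67, -0.89 and -0.76. The 10 fibroblast markers summed to 17.9 to 39.6 TPM in control and 11.6 to 28.3 TPM in 4A1 KO libraries, with Lum and Postn at 0, T cell markers to at most 2.65 TPM with Cd3g at 0, and myeloid markers to 2.71 to 5.32 TPM in control and 4.02 to 6.22 TPM in 4A1 KO libraries, with S100a8 and S100a9 at 0. Over replicates 2 to 4 the myeloid sums did not overlap (at most 4.53 TPM in control and at least 4.93 TPM in 4A1 KO). The myeloid marker Adgre1 was increased (log2 fold change of counts 0.62), as was the fibroblast marker Fn1 (0.86). The fibroblast marker Col3a1 was decreased (-1.57), on only 1 to 38 counts per library. Thy1 made up the largest part of the fibroblast sums, at a mean of 21.1 TPM in control and 14.1 TPM in 4A1 KO libraries of replicates 2 to 4, and was not called. The part of other cells in the results was not tested. In bulk RNA, fewer cells at one stage of the cycle and less RNA of a gene per cell cannot be told apart.

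Promoter sequence was examined because most of these genes were lower in 4A1 KO B cells while Cdk6 was higher. RefSeq promoter windows (build GRCm38.p6, 250 bases before to 50 after each start) were at hand for 8 of the 10 genes, all except Ccnd2 and Ccne2. They were searched on both strands for an E-box, CACGTG, the letters bound by MYC and related factors, for the E2F letters in the spelling TTGGCGC or in any of the related spellings TTCGCGC, another being TTCCCGC and the last searched being TTGCCGC, and for the FOXO letters GTAAACA. Of 32544 promoters of the same length, 7.17% held the E-box, 9.64% an E2F match and 3.66% the FOXO letters. The E-boxes of Cdk4 and Cdk6 are printed on the strand of the gene, with the motif in capitals, because these kinases take the same cyclins and differed in opposite directions between the genotypes.
Cdk4, chr10:127063353-127063378 (+): ggcagccagtCACGTGccacacagcg
Cdk4, chr10:127063407-127063432 (+): gtcaaggggtCACGTGggatagcaac
Cdk4, chr10:127063427-127063452 (+): agcaacaggtCACGTGgccgtcaggg
Cdk4, chr10:127063514-127063539 (+): gggtgaagatCACGTGtccagaacgt
Cdk6, chr5:3343663-3343688 (+): tctgcggcccCACGTGggtgaacccc
Cdk4 held 4 E-boxes in this window, a number reached by 8 promoters in all (0.025%), and Cdk6 held 1. Neither window held E2F or FOXO letters.

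E2F letters were found only in windows of Cdk2 and Cdkn2c, and these matches are printed. Capitals again mark the match, which in Cdk2 lies on the opposite strand and therefore reads as its reverse complement.
Cdk2, chr10:128705175-128705201 (-): accaggaactGCGGGAAagttgtgcag
Cdk2, chr10:128705045-128705071 (-): ccagggaaacGCGGGAAggaggggcgg
Cdk2, chr10:128705002-128705021 (-): agtgggggagGCGGCAAcat
Cdkn2c, chr4:109666765-109666791 (-): gggcccggccTTCCCGCtcccgcggcg
A second promoter of Cdkn2c held 1 E-box, and the first of the 2 windows of Ccnd3 held the FOXO letters on the opposite strand, whereas its other window held none of the searched letters. The windows of Ccne1, Cdkn1b and Cdkn2d held none of the searched letters. A match describes the sequence and does not show that a factor binds there, and no match says only that these letters are not in this window. Any link between the searched letters and the genotype differences was not tested.

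To compare the genotypes, counts of replicates 2 to 4 (n = 3 per genotype) were fitted with batch and sex as covariates, and a call needed an adjusted p under 0.05 together with an absolute log2 fold change above 0.5. The RNA of 5 of the 10 genes fell in 4A1 KO B cells (Ccnd3, Ccne1, Ccne2, Cdkn2c and Cdkn2d), that of Cdk6 rose, and 4 were not called (Ccnd2, Cdk2, Cdk4 and Cdkn1b). All 10 had passed the filter on low counts. Over the 14218 genes tested, 25.3% were called, 13.7% as decreased and 11.6% as increased. By adjusted p alone, 8 of the 10 were lower and 1 higher (7 lower without replicate 3 or without the replicate block, where Ccnd2 no longer passed), where 53% of all tested genes passed (26.7% lower and 26.3% higher). The median log2 fold change was -0.55 over the 10 genes and 0.01 over all genes tested.

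**Figure D1:**
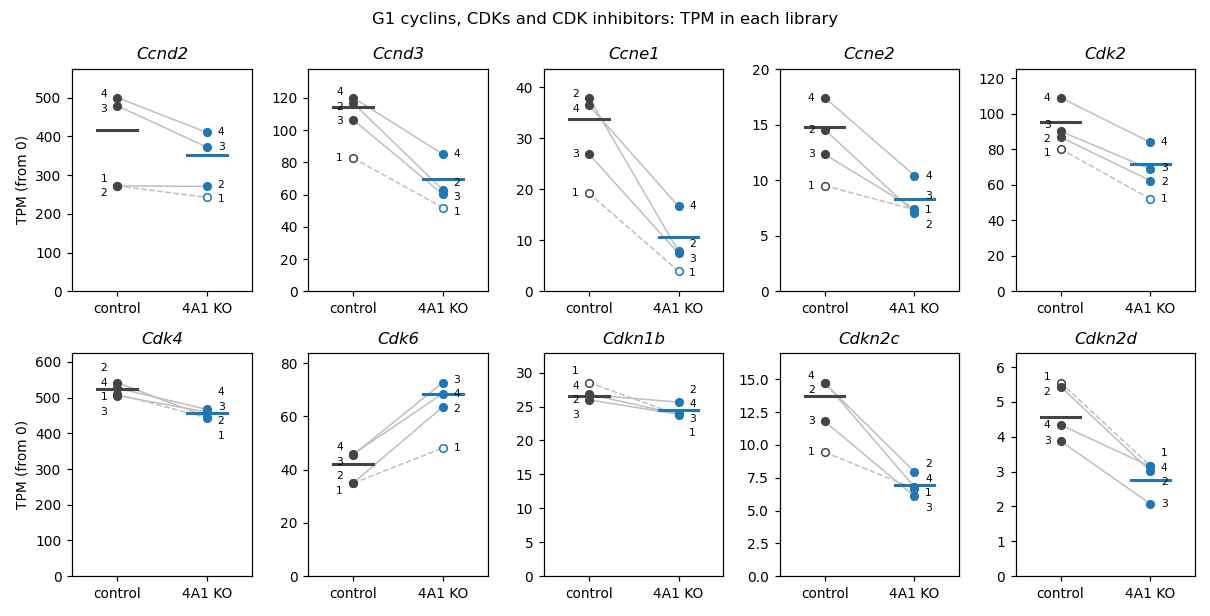
TPM of each of the 10 genes in the 8 libraries, on axes that start at 0. Numbers give the replicate, lines join libraries of the same batch and sex, open points and dashed lines are replicate 1, and horizontal bars are means of replicates 2 to 4. Ccne1 is lower in all 4A1 KO libraries (3.93 to 16.6 TPM) than in any control library (19.2 to 38.0 TPM), Cdk6 is higher, and Ccnd2 is split by batch in both genotypes.

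The D-type cyclins differed from each other in level and in response. Ccnd2, the more abundant in every library, was at 272 TPM in control 1, 272 in control 2, 479 in control 3 and 500.2 in control 4. In 4A1 KO libraries 1 to 4 it was at 242, 271, 372 and 410.1 TPM. Both genotypes split by batch, with all batch A libraries at or below 272 TPM and all batch B libraries at or above 372 TPM, and the genotypes overlapped. Ccnd2 TPM was lower in the 4A1 KO library of each same-numbered pair, with percent changes from -0.422 in pair 2 to -22.3 in pair 3. Its counts gave a log2 fold change of -0.21 ± 0.07 (SE; edgeR, Benjamini-Hochberg adjusted p = 0.0248), below the size needed for a call. It was -0.13 without replicate 3 and -0.32 without replicate 2.

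Ccnd3, a D-type cyclin with a known part in germinal centre B cells, was at 82.6, 117, 106 and 120.2 TPM in control libraries 1 to 4 and at 51.9, 63.0, 60.1 and 85.1 TPM in 4A1 KO libraries 1 to 4. The lowest control, from replicate 1, lay just below the highest 4A1 KO library, from replicate 4, so that the genotypes overlapped over all 8 libraries but not over replicates 2 to 4. The mean of replicates 2 to 4 fell from 115 ± 7.13 to 69.4 ± 13.7 TPM (SD, n = 3), and the log2 fold change of counts was -0.70 ± 0.08 (SE; edgeR, Benjamini-Hochberg adjusted p = 9.93e-05). A processed pseudogene, Ccnd3-ps, is 96.3% identical to the Ccnd3 transcript over 881 nt and had 3 to 19 counts per library, where Ccnd3 had 1871 to 5380. Ccnd3 also shares 369 nt of its exons with Bysl on the opposite strand, which had 5037 to 7350 counts, and the part of Bysl in the Ccnd3 values was not tested. Among the other genes, Cdk4 shares 646 nt of exons with Tspan31, likewise on the opposite strand, which had 1577 to 2707 counts against 11997 to 17747 of Cdk4. Ccne1 shares 334 nt of exons with 1600014C10Rik on the opposite strand, which had 102 to 336 counts against 136 to 1651 of Ccne1, and its part in the Ccne1 values was not tested.

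The E-type cyclins, which activate CDK2 at the G1 to S transition, both fell. Ccne1 was at 19.2, 38.0, 26.9 and 36.5 TPM in control libraries 1 to 4 and at 3.93, 7.82, 7.42 and 16.6 TPM in 4A1 KO libraries 1 to 4. The genotypes did not overlap, and 4A1 KO 4 was the highest of the 4A1 KO libraries by a wide margin. The percent changes of the 4 pairs were -79.6, -79.4, -72.5 and -54.4, and the mean of replicates 2 to 4 fell from 33.8 ± 6.00 to 10.6 ± 5.21 TPM (SD, n = 3). With a log2 fold change of -1.74 ± 0.18 in counts (SE; edgeR, Benjamini-Hochberg adjusted p = 8.54e-05), Ccne1 had the largest change of the 10 genes in this fit. It was -1.12 in DESeq2 with normal shrinkage, where Cdkn2c had the larger change (-1.23).

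Ccne2 was less abundant, at 9.52, 14.6, 12.3 and 17.4 TPM in control libraries 1 to 4 and 7.35, 7.08, 7.42 and 10.4 TPM in 4A1 KO libraries 1 to 4. Here 4A1 KO 4 was higher than control 1, and the genotypes overlapped over all 8 libraries but not over replicates 2 to 4. The log2 fold change of counts was -0.95 ± 0.10 (SE; edgeR, Benjamini-Hochberg adjusted p = 9.38e-05), and the mean TPM of replicates 2 to 4 fell from 14.8 ± 2.57 to 8.31 ± 1.84 (SD, n = 3). In the GENCODE M39 annotation of GRCm39, Ccne2 (chr4:11190303-11204947, plus strand) shares 2611 nt of its exons with Ints8 on the opposite strand. Ints8 had 2586 to 3789 counts per library, above the 286 to 1107 of Ccne2, and its part in the Ccne2 values was not tested. The counting was strand-specific, and the strand setting behind the TPM is not given in the sources used here.

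The RNA of the 3 kinases did not move together. The study described the RNA of Cdk4 and Cdk6 as not different between the genotypes, and reported both proteins as reduced. Cdk4 was the most abundant of the 10 genes in the mean of both genotypes, at 509.8, 542, 506 and 527 TPM in control libraries 1 to 4 and 444, 446, 459.6 and 467 TPM in 4A1 KO libraries 1 to 4. The genotypes did not overlap, with the highest 4A1 KO library at 467 TPM and the lowest control at 506 TPM. The mean of replicates 2 to 4 decreased by 12.8%, and the log2 fold change of counts, -0.22 ± 0.05 (SE; edgeR, Benjamini-Hochberg adjusted p = 0.00350), did not reach the size for a call.

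Cdk2, the partner of the E-type cyclins, was at 80.1, 86.8, 90.1 and 109 TPM in control libraries 1 to 4 and 52.0, 62.3, 68.8 and 83.8 TPM in 4A1 KO libraries 1 to 4. Replicate 4 was the highest and replicate 1 the lowest in both genotypes, and 4A1 KO 4 was above control 1. The log2 fold change of counts was -0.40 ± 0.05 (SE; edgeR, Benjamini-Hochberg adjusted p = 2.42e-04). Cdk2 thus passed the test by its p but not by its size.

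Cdk6 rose. It was at 34.9, 34.9, 45.5 and 45.8 TPM in control libraries 1 to 4 and at 48.1, 63.6, 72.7 and 68.5 TPM in 4A1 KO libraries 1 to 4. All 4A1 KO libraries were above all control libraries, and the batch A libraries were below the batch B libraries within each genotype. The mean of replicates 2 to 4 rose by 62.3%, from 42.1 ± 6.19 to 68.3 ± 4.56 TPM (SD, n = 3), and the log2 fold change of counts was 0.69 ± 0.06 (SE; edgeR, Benjamini-Hochberg adjusted p = 3.33e-05). Cdk6 (GRCm39 chr5:3391485-3581008, plus strand) has by far the longest 3′ untranslated region of the 10 genes, 10217 nt of a canonical transcript of 11657 nt, compared with 899 of 2081 nt in Cdk4.

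**Figure D2:**
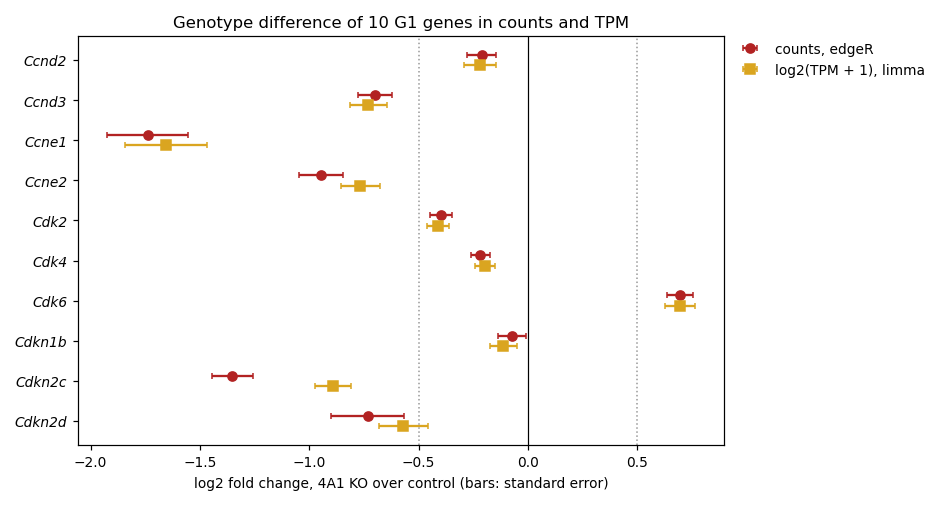
Log2 fold change of each gene in 4A1 KO over control B cells, from counts (circles, edgeR) and from log2(TPM + 1) (squares, limma), replicates 2 to 4, with standard errors as bars and the size needed for a call at the dotted lines. Cdk6 is the 1 gene to the right of 0, and the estimates for Cdkn2c, -1.35 in counts and -0.89 in TPM, lie farthest apart.

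Both INK4 inhibitor genes among the 10 fell. Cdkn2c, which encodes p18, was at 9.45, 14.7, 11.8 and 14.8 TPM in control libraries 1 to 4 and 6.68, 7.96, 6.08 and 6.80 TPM in 4A1 KO libraries 1 to 4. The genotypes did not overlap, and the 4A1 KO libraries lay close together. Counts showed a greater difference, from 10.3, 16.5, 13.3 and 16.3 CPM in control to 5.67, 6.52, 5.08 and 6.49 CPM in 4A1 KO libraries. The means of replicates 2 to 4 fell by 60.8% in CPM and by 49.5% in TPM, and the cause of this gap between the measures was not tested. The log2 fold change of counts was -1.35 ± 0.09 (SE; edgeR, Benjamini-Hochberg adjusted p = 1.65e-05), and that of TPM was -0.89 ± 0.08 (SE; limma, Benjamini-Hochberg adjusted p = 8.44e-04).

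Cdkn2d, which encodes p19, was the least abundant of the 10 genes. It was at 5.56, 5.44, 3.88 and 4.34 TPM in control libraries 1 to 4 and at 3.17, 3.02, 2.08 and 3.15 TPM in 4A1 KO libraries 1 to 4. The genotypes did not overlap, but the values rested on only 59 to 170 counts per library. The log2 fold change of counts was -0.73 ± 0.17 (SE; edgeR, Benjamini-Hochberg adjusted p = 0.00574), and the call was lost when the test asked for a fold change beyond 0.5 rather than beyond 0 (edgeR glmTreat, Benjamini-Hochberg adjusted p = 0.188).

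Cdkn1b, the gene of p27, differed least between the genotypes. It was at 28.5, 26.7, 26.0 and 26.8 TPM in control libraries 1 to 4 and at 23.7, 25.7, 23.9 and 23.9 TPM in 4A1 KO libraries 1 to 4. The 4A1 KO libraries were all below the control libraries in TPM but overlapped with them in CPM. The log2 fold change of counts was -0.07 ± 0.06 (SE; edgeR, Benjamini-Hochberg adjusted p = 0.372). On the log2(TPM + 1) scale it was -0.11 ± 0.06 in replicates 2 to 4 (SE; limma, Benjamini-Hochberg adjusted p = 0.176) and -0.15 in all 8 libraries (limma, Benjamini-Hochberg adjusted p = 0.0449).

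In TPM, 8 of the 10 genes were lower and 1 was higher at an adjusted p under 0.05 (limma, Benjamini-Hochberg), where 50.7% of the 12976 genes tested in TPM passed (26.6% lower and 24.1% higher). Without the filter on low TPM, 5 were lower, and Ccnd2, Cdk4 and Cdkn2d no longer passed. Ccnd2 had passed only narrowly (limma, Benjamini-Hochberg adjusted p = 0.0499) and was also lost in other alternatives given further on. Over all 8 libraries the TPM of the genotypes did not overlap for 6 of the 10 genes, 5 lower (Ccne1, Cdk4, Cdkn1b, Cdkn2c and Cdkn2d) and Cdk6 higher. Among 12996 genes this held for 35.6%, 19.6% lower and 16% higher. Within each of the 4 pairs of the same batch and sex, 9 of the 10 genes had a lower TPM in the 4A1 KO library and Cdk6 a higher one, where 35% of the 12996 genes were lower and 31.9% higher in all 4 pairs. In CPM, Ccnd2 and Cdkn1b were slightly higher in the 4A1 KO library of pair 2, by 0.0022 and 0.028 on the log2 scale. Among pairs 2 to 4, the smallest change in TPM was in pair 4, the batch B females, for 5 genes (Ccnd3, Ccne1, Cdk2, Cdk6 and Cdkn2d), in pair 2 for 3 and in pair 3 for 2. In CPM the smallest change of Cdk6 was in pair 3, and those of Ccne2 and Cdkn2c were in pair 4.

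No genotype difference of the 10 genes differed by sex or by batch at an adjusted p under 0.05 in the 8 libraries (edgeR interaction terms, Benjamini-Hochberg). Over 14211 genes, 0% passed for sex and 0.00704% for batch. At an unadjusted p under 0.05 there were 0 of the 10 genes for sex and 2 for batch, Ccne1 and Ccnd2, where 2.85% and 4.29% of all tested genes passed. For Ccne1 the log2 difference between the batches was 0.80 ± 0.24 (SE), a smaller decrease in batch B, and for Ccnd2 it was -0.25 ± 0.08 (SE), a larger decrease in batch B. Both had an adjusted p of 0.999 (edgeR, Benjamini-Hochberg).

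The order of TPM levels placed each gene among its partners. In control B cells, by the mean of replicates 2 to 4, Cdk4 at 525 TPM came first, followed by Ccnd2 at 417, Ccnd3 at 115, Cdk2 at 95.3, Cdk6 at 42.1, Ccne1 at 33.8, Cdkn1b at 26.5, Ccne2 at 14.8, Cdkn2c at 13.8 and Cdkn2d at 4.55. The ranges of the libraries overlapped between the neighbours Ccnd3 and Cdk2, Cdk6 and Ccne1, and Ccne2 and Cdkn2c. In 4A1 KO B cells the order was Cdk4 at 458, Ccnd2 at 351, Cdk2 at 71.6, Ccnd3 at 69.4, Cdk6 at 68.3, Cdkn1b at 24.5, Ccne1 at 10.6, Ccne2 at 8.31, Cdkn2c at 6.95 and Cdkn2d at 2.75 TPM. There, the ranges of the neighbours Cdk2, Ccnd3 and Cdk6 overlapped, as did those of Ccne1, Ccne2 and Cdkn2c. Cdk6 was below Cdk2 and Ccnd3 in all control libraries of replicates 2 to 4, and Ccne1 was above Cdkn1b in these control libraries and below it in the 4A1 KO libraries. In control 1, however, Ccne1 was below Cdkn1b, at 19.2 against 28.5 TPM.

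Ratios of TPM within a library compare the RNA of partners and inhibitors without depending on how libraries are scaled to each other. Such ratios do not give the balance of the proteins. They are described without a test, because they are built from the same values as the genes above. The ratio of Cdk6 to Cdk4 was 0.0685, 0.0644, 0.0900 and 0.0869 in control libraries 1 to 4 and 0.108, 0.142, 0.158 and 0.147 in 4A1 KO libraries 1 to 4. It was higher in every 4A1 KO library, by 0.84 on the log2 scale in the mean of all 8 libraries and by 0.91 in replicates 2 to 4. Cdk4 still made up most of the RNA of the 2 kinases in all libraries.

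The summed TPM of the E-type cyclins relative to the D-type cyclins was 0.0810, 0.135, 0.0670 and 0.0870 in control libraries 1 to 4 and 0.0384, 0.0446, 0.0343 and 0.0547 in 4A1 KO libraries 1 to 4. These ranges did not overlap, and the mean log2 difference was -1.08. Ccnd3 relative to Ccnd2 was 0.303, 0.429, 0.222 and 0.240 in control and 0.214, 0.232, 0.162 and 0.207 in 4A1 KO libraries. The ranges of this ratio overlapped, although it was lower in the 4A1 KO library of all 4 pairs (mean log2 difference -0.52).

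For the inhibitors the ratios went in opposite directions, with the INK4 side represented by Cdkn2c and Cdkn2d alone. Summed Cdkn2c and Cdkn2d relative to summed Cdk4 and Cdk6 was 0.0276, 0.0349, 0.0284 and 0.0334 in control libraries 1 to 4 and 0.0200, 0.0215, 0.0153 and 0.0186 in 4A1 KO libraries 1 to 4, without overlap. Its mean log2 difference was -0.72, and -1.28 where CPM, which are not divided by transcript length, were used in place of TPM. Cdkn1b relative to the summed E-type cyclins and Cdk2 was 0.262, 0.192, 0.201 and 0.165 in control and 0.375, 0.333, 0.285 and 0.215 in 4A1 KO libraries. It was higher in the 4A1 KO library of all 4 pairs (mean log2 difference 0.55), with overlapping ranges. Cdkn1b itself had not been called, and the 3 genes in the denominator were each lower at an adjusted p under 0.05.

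**Figure D3:**
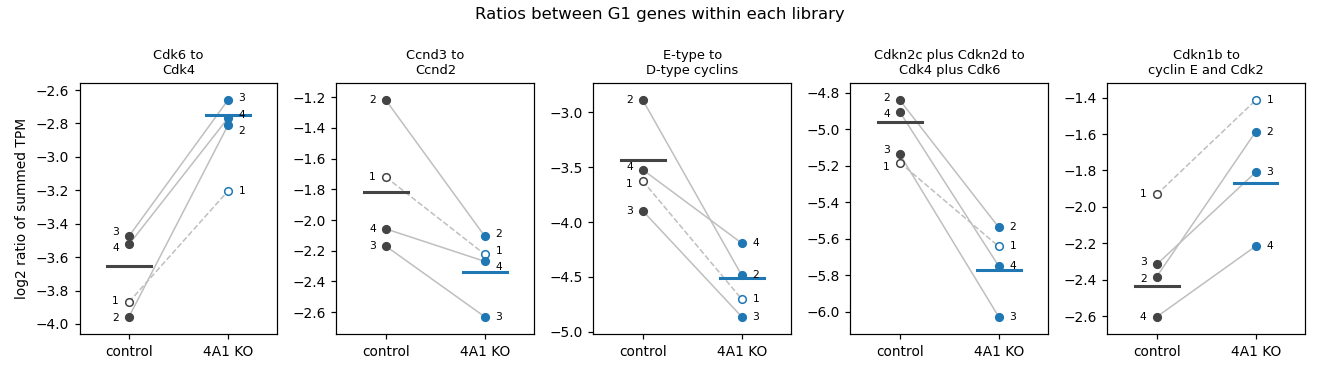
Log2 ratios of summed TPM between groups of the 10 genes within each library, with a separate axis range per panel. Numbers give the replicate, lines join libraries of the same batch and sex, open points are replicate 1, and bars are means of replicates 2 to 4. The ratio of Cdk6 to Cdk4 is higher, and the ratios of E-type to D-type cyclins and of summed Cdkn2c and Cdkn2d to summed Cdk4 and Cdk6 are lower, in all 4A1 KO libraries than in any control library, while Ccnd3 to Ccnd2 and Cdkn1b to cyclin E and Cdk2 overlap.

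Other genes of the pathway were counted in 4 lists. Of 14 other cyclins, CDKs and CDK inhibitors, 13 were tested, of which 5 were decreased, 0 increased and 8 not called, with a median log2 fold change of -0.21, where 13.7% of all tested genes were decreased and 11.6% increased. Leaving out replicate 2 gave 2 increased genes in this list, including Ccnd1. The decreased genes included the S and G2/M phase genes Ccnb1 (-2.27), Cdk1 (-2.61), Ccna2 (-2.72) and Ccnb2 (-2.70), in log2 fold changes of counts. With DESeq2's normal shrinkage these were -1.59, -1.37, -1.09 and -1.10, and Ccna2 and Ccnb2 then changed less than Ccne1 and Cdkn2c. Ccnd1, the remaining D-type cyclin, was hardly present, at 1.02 ± 0.418 TPM in control and 1.12 ± 0.167 TPM in 4A1 KO B cells (SD, n = 3, replicates 2 to 4). Its counts were 100, 104, 30 and 29 in control libraries 1 to 4 and 61, 59, 64 and 47 in 4A1 KO libraries 1 to 4, with the batch A controls the highest. Its log2 fold change was 0.26 ± 0.34 (SE; edgeR, Benjamini-Hochberg adjusted p = 0.550), which turned to -0.12 without replicate 3, and without replicate 2 it was 0.93 and called (adjusted p = 0.0328). The remaining INK4 genes, named after their values were seen, were not called and had positive estimates, Cdkn2b at 1.79 ± 0.764 TPM in control and 2.55 ± 1.13 TPM in 4A1 KO B cells and Cdkn2a at 1.12 ± 0.670 and 1.40 ± 0.407 TPM (SD, n = 3). Their log2 fold changes of counts were 0.54 ± 0.37 and 0.39 ± 0.37 (SE; edgeR, Benjamini-Hochberg adjusted p = 0.244 and 0.403). Cdkn1a, the gene of p21, was at 7.45, 9.60, 11.5 and 24.0 TPM in control libraries 1 to 4 and 13.7, 11.8, 15.3 and 25.8 TPM in 4A1 KO libraries 1 to 4. It was higher in the 4A1 KO library of each pair but overlapped between genotypes, with a log2 fold change of 0.22 ± 0.09 (SE; edgeR, Benjamini-Hochberg adjusted p = 0.0663). With all 8 libraries and the replicate block it was 0.37 (adjusted p = 0.0219), and over the alternatives its adjusted p ranged from 0.0219 to 1 without a call.

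The second list holds the CDK-activating kinase, the CDC25 phosphatases that remove inhibitory phosphates from CDKs, the kinases that add them, and partners such as Cdc37, a chaperone partner of CDK4. Of its 10 tested genes 5 were decreased and 0 increased, with a median of -0.43, where 13.7% of all tested genes were decreased and 11.6% increased. The phosphatase genes Cdc25a, whose product activates CDK2 in late G1, Cdc25b and Cdc25c changed by -1.002, -1.27 and -2.43 on the log2 scale of counts. Cdc37 changed by -0.55 in counts, just past the size for a call, and lost the call without replicate 3 (-0.50) and under glmTreat, so that 4 genes of the list were then decreased.

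**Figure D4:**
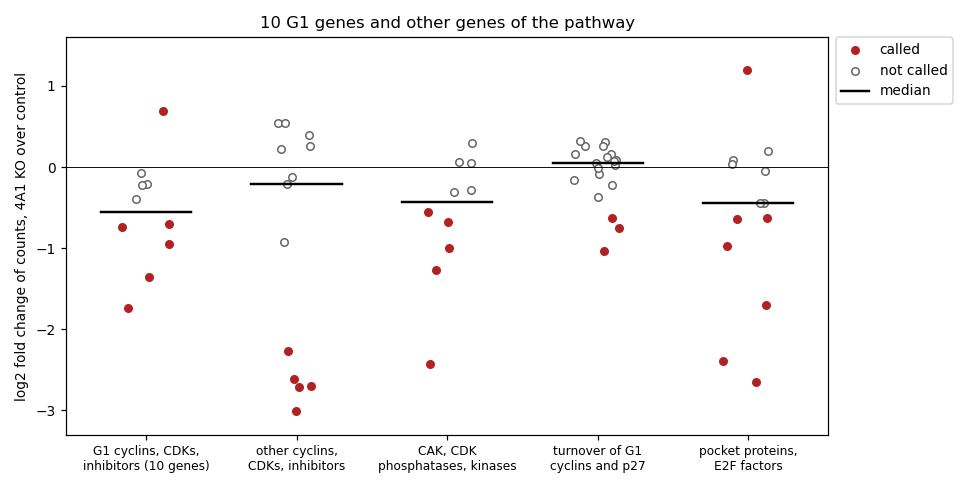
Log2 fold changes of counts (4A1 KO over control, replicates 2 to 4) of the 10 G1 genes and of 4 lists of other pathway genes. Filled points are called, open points are not called, and black bars are medians, at -0.55, -0.21, -0.43, 0.05 and -0.45 from left to right. The turnover genes lie closest to 0 and have 3 called of 19.

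Of 19 tested ubiquitin ligase components and partners that turn over G1 cyclins and p27, 3 were decreased and 0 increased, with a median of 0.05, and the count of decreases was close to the 13.7% of all tested genes. The 3 were Skp2, the receptor subunit that binds phosphorylated p27, Cks1b, its cofactor for p27, and the related Cks2, at -0.63, -1.03 and -0.75 on the log2 scale of counts. Of 13 pocket protein and E2F genes, 6 were decreased and 1 increased, with a median of -0.45. E2f1 and E2f2, activators that themselves are E2F targets, changed by -0.97 and -1.70, and the repressors E2f6 and E2f7 by -0.65 and -2.39. The 1 increased gene, named after its value was seen, was E2f5, a factor that binds pocket proteins, at 1.19. Over the 4 lists, 19 of 55 tested genes were decreased (34.5%) and 1 was increased (1.82%), beside 13.7% and 11.6% of all tested genes. The lists were written with earlier results of these data known, so these shares describe the lists and are not a test.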

How the data were processed

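RNA of B cells from 8 mice, 4 per genotype, was sequenced as paired reads from strand-specific libraries. The authors trimmed the reads with Trim Galore 0.6.6, mapped them to GRCm39 with HISAT2 2.1.0, and deposited raw read counts made with Seqmonk over merged isoforms, taking strand into account. The deposited TPM came from StringTie 2.1.1, run by the authors. How reads mapping to several places were counted is not given in the sources used here. All per-sample columns were used, and their groups came from the labels.

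Counts were compared in R 4.3.3 with edgeR 4.0.16 (TMM, filterByExpr, quasi-likelihood test) in replicates 2 to 4, with batch, sex and genotype, over 14218 genes. For TPM, limma 3.58.1 was fitted to log2(TPM + 1) of the 12976 genes averaging 1 TPM or more. Such fold changes understate the change of low genes. All p-values were two-sided and adjusted with the Benjamini-Hochberg method over all genes tested. Printed CPM used TMM library sizes of the 8 libraries. Depth was 31727557 to 43210858 counts per library, and SDs are between mice. Batch and sex, given in the labels, pair libraries of the same number. Their deviations from the genotype means correlated across genes at r = 0.469 to 0.631. The mean of -0.271 for other numbers is no separate evidence, because deviations from a mean cancel out within a genotype. A permutation test planned for the ratios was not reported, because the ratios are built from genes described already.

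Genes of the tables were matched to GENCODE M39 by identifier (52647 of 53242), and similar transcripts were sought with blastn 2.17.0 (at least 90% identity over 200 nt). Named genes are the 10 genes, the called genes of each list with the 4 smallest adjusted p, and Ccnd1, Cdkn1a, Skp2, Cks1b and Eif4a1. The members and lists were chosen with earlier results of these data known. The scripts were tested on simulated data. Alternatives were other normalizations, DESeq2 1.42.0, other filters and pseudocounts, no replicate block, all 8 libraries, leaving out replicates, and glmTreat. A B cell marker gene is not reported here.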

Additional observations from a re-analysis of the deposited data

Results flagged for a closer look

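For the 10 G1 genes and the ratios between them, the distance of the highest or lowest library from its nearest neighbour was divided by the range of its genotype in each of 50 groups of 4 libraries. This share was above Dixon's critical value for 4 samples in 7 groups. Chance gives about 1 in 20 independent groups, or 2.5 here. The groups are not independent, because each gene enters in CPM and in TPM and the ratios use the same genes. The count of 7 is therefore not a test against 2.5.

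Ccne2 was set apart in 4A1 KO 4, at 14.9 CPM against 9.05 to 9.87 CPM in the other 4A1 KO libraries (share 0.862) and at 10.4 TPM against 7.08 to 7.42 TPM (share 0.898). Cdk4 was highest in 4A1 KO 1, at 379.7 CPM against 354 to 358 CPM (share 0.851), which was not seen in its TPM, where 4A1 KO 1 was the lowest at 444. Cdkn1b was highest in control 1, at 49.3 CPM against 40.1 to 41.5 CPM (share 0.855), and in TPM in 4A1 KO 2, at 25.7 against 23.7 to 23.9 TPM (share 0.928). Cdkn2d was lowest in 4A1 KO 3, at 1.46 CPM against 2.103 to 2.22 CPM (share 0.851) and at 2.08 TPM against 3.02 to 3.17 TPM (share 0.868), on 59 counts. A library of replicate 1 was the one set apart in 2 of the 7 groups.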

How the results depend on the processing

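In counts, 9 of the 10 genes kept their direction and their side of the threshold in the 12 alternatives, and Cdkn2d in 11, with the exception of glmTreat. Ccnd2, which was never called, lost its adjusted p under 0.05 without replicate 3 (0.165), without the replicate block (0.432) and under glmTreat, as did Cdk2 and Cdk4 under glmTreat. Leaving out single replicates moved the log2 fold change of Ccne1 between -2.08 and -1.47, and DESeq2 with normal shrinkage gave -1.12. Without the replicate block, 5 of the 10 genes were called decreased and 1 increased, the main counts, whereas over all genes 1658 were decreased and 1342 increased in place of 1949 and 1647. Over all genes, DESeq2 with normal shrinkage called 1089 increased, and glmTreat called 987 decreased and 640 increased. Of the genes in the 4 pathway lists, 1 to 3 were increased when single replicates were left out (3 without replicate 2, including Ccnd1), and the log2 fold change of Ccnd1 went from -0.12 to 0.93. Cdc37 lost its call under glmTreat and, at -0.50, without replicate 3, and Skp2 under glmTreat. In TPM, 5 genes were lower at an adjusted p under 0.05 without a filter on low TPM, in place of 8, where Ccnd2, Cdk4 and Cdkn2d no longer passed (limma, Benjamini-Hochberg adjusted p = 0.183, 0.0612 and 0.0581). Ccnd2 also no longer passed in TPM with a pseudocount of 0.1, without the replicate block, without replicate 3 and without replicate 4, nor Cdk4 without replicate 2. The log2 difference of the ratio of Cdkn2c and Cdkn2d to Cdk4 and Cdk6 was -1.28 in CPM. CPM are not divided by transcript length, so Cdk6, with its long transcript, weighs more in the CPM sum. Over all control libraries Cdk6 averaged 215 CPM beside 417 for Cdk4, but 40.3 TPM beside 521. How much of the gap this makes up was not tested. With 3 mice per genotype, differences as small as those of Cdkn1b and Ccnd2 are the least certain here, and 59 to 170 counts limit the precision for Cdkn2d.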

Other observations

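Cdc37, the chaperone partner of CDK4, differed between the deposited measures in a single library. Its TPM was 149, 149, 152 and 143 in control libraries 1 to 4 and 97.9, 242, 94.8 and 95.7 in 4A1 KO libraries 1 to 4, so that 4A1 KO 2 stood above all other libraries. Its counts were 17577 to 18780 in control and 10563 to 12602 in 4A1 KO libraries, with 12175 in 4A1 KO 2, which was not set apart. The cause was not tested.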
